A study of Mus musculus with 8 samples.

Results

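The genes described here were 6 membrane-bound peptidases, Mme (neprilysin), Ece1, Ace, Anpep, Dpp4 and Enpep, chosen by name from the 36333 genes of an RNA-seq table of mouse ventral prostate. Neprilysin stood out in an earlier reading of the same values, so the levels of these 6 genes in the 2 genotypes are given as a description and not as a test. The ventral lobes came from 4 hSKP2-KI mice and 4 WT mice, FVB/N males aged 12 months, with 1 library made from each mouse. The hSKP2-KI mice carried a P2A-human SKP2 coding sequence inserted by CRISPR/Cas9 into exon 1 of the X-linked mouse probasin gene (Pbsn). Human SKP2, a substrate receptor of an SCF ubiquitin ligase, was thus driven by the probasin promoter, which is active in prostate epithelium. WT mice carried no insertion, and no group received a treatment. The insertion sits in Pbsn itself, so the hSKP2-KI mice also had an altered probasin gene. Several founder lines were described by the study, and the line that gave these 4 mice is not given in the sources used here. The values are TPM, a unit that accounts for gene length and gives every library an equal sum, so that levels of different genes can be set beside each other. The number of reads behind a value is unknown.

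Ectopeptidases are enzymes anchored in the plasma membrane with the active site facing outwards, where they cut small peptides on the cell surface and so end, or begin, signalling by peptide hormones and local mediators. Most of them are zinc metalloenzymes. Neprilysin, encoded by Mme, cleaves enkephalins, substance P, endothelins, natriuretic peptides, bradykinin and bombesin-like peptides, and in the human prostate it is found on luminal epithelial cells. Ece1 belongs to the same protein family and releases active endothelin from its precursor. Ace turns angiotensin I into angiotensin II and inactivates bradykinin, whereas Enpep (aminopeptidase A) removes the first residue of angiotensin II. Anpep (aminopeptidase N) trims neutral residues from many peptides, enkephalins among them. Dpp4, a serine peptidase, removes dipeptides from incretins, neuropeptide Y and the chemokine CXCL12.

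The 6 genes lie on 5 chromosomes of the GRCm38.p6 assembly, by the RefSeq gene table. Mme (Entrez 17380) is at chr3:63295211-63383713 on the plus strand, and Enpep (Entrez 13809) is on the same chromosome at chr3:129269177-129332749. Ece1 (Entrez 230857) is at chr4:137862237-137965229, Ace (Entrez 11421) at chr11:105967948-105989964, Anpep (Entrez 16790) at chr7:79821803-79848210 and Dpp4 (Entrez 13482) at chr2:62330073-62412315. RefSeq promoter sequences were found for all 6 genes. Mme has 3 listed transcription starts, Ece1 has 4, Ace has 2, and Anpep, Dpp4 and Enpep have 1 each.

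The sequence before the first start of Mme is shown because, of the 6 genes, only Mme had a far lower level in hSKP2-KI prostates. That of Anpep, also abundant, is shown because its levels overlapped between the genotypes (mean 49.6 TPM in WT and 62.8 TPM in hSKP2-KI). Each is the 250 bases before the start, 5′ to 3′ on the gene's own strand (Mme chr3:63294961-63295210, plus strand, and Anpep chr7:79848211-79848460, minus strand, GRCm38.p6), and overlaps no annotated exon. Capitals mark the GC box, GGGCGG on either strand.
Mme: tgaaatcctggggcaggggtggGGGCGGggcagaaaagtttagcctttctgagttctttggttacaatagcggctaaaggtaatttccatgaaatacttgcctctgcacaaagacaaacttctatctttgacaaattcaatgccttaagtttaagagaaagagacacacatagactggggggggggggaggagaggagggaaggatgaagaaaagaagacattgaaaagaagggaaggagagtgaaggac
Anpep: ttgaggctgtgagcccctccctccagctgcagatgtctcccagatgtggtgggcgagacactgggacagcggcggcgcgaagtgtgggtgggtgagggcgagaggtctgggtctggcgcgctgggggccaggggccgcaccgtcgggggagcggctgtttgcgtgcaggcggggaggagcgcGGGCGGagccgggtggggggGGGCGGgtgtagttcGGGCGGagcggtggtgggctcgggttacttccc
Of these bases, 45.6% are G or C in the Mme window and 72.8% in the Anpep window, against a median of 52.4% over 32851 windows of the same length. The Mme window holds 1 GC box, 228 bases before the start, and the Anpep window holds 3, all within 68 bases of the start. A GC box on either strand is found in 32.7% of all windows. The androgen receptor half-site TGTTCT, searched on both strands, is in neither window and is present in 16.1% of all windows. Among the other 4 genes it was found once before the single start of Dpp4 and once before 1 of the 4 starts of Ece1. The windows before the 2 downstream starts of Mme were richer in G and C, at 73.2% and 73.6%, with 2 GC boxes each and no half-site. Such matches describe letters only.

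The libraries matched their labels. Mouse Skp2 lay between 37.3 and 60.6 TPM in hSKP2-KI and between 1.05 and 2.27 TPM in WT prostates, and how reads of the human insert were assigned is not given in the sources used here. Pbsn lay between 93.0 and 174 TPM in hSKP2-KI and between 3980 and 9232 TPM in WT prostates. The secretory and luminal markers of the ventral lobe were present in every library, with a summed level of 9 genes between 330614 and 355189 TPM in hSKP2-KI and between 421579 and 469401 TPM in WT, whereas 7 seminal vesicle genes summed to at most 0.666 TPM. Since TPM has an equal sum in every library, a lower share for abundant transcripts leaves a larger share for the rest. The median log2 difference (hSKP2-KI minus WT) of the 13080 genes that had at least 1 TPM in at least 4 of the 8 samples was 0.23, and it was -0.01 after the libraries were put on a common scale by the median ratio of their genes. Both scales are therefore given below. All 6 peptidase genes were among the 13080, with at least 1 TPM in 8 of 8 samples.

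Neprilysin was the most abundant of the 6 transcripts in WT prostates. Mme was at 411, 525, 283 and 457 TPM in the 4 WT mice and at 78.6, 96.4, 116 and 97.0 TPM in the 4 hSKP2-KI mice. The lowest WT value was above the highest hSKP2-KI value, so the genotypes did not overlap. The means were 419 ± 102 TPM (SD, n = 4) in WT and 96.9 ± 15.1 TPM (SD, n = 4) in hSKP2-KI, a ratio of WT to hSKP2-KI of 4.32. On the log2(TPM + 1) scale the difference was -2.08, or -2.31 relative to the median gene, and -2.35 after median-ratio scaling. Of the 13080 genes, 11 had a lower difference than Mme. By mean level among all listed genes, Mme ranked 189 in WT and 1115 in hSKP2-KI prostates. A level below WT in every sample was found for 1.03% of the genes tested, and Mme was the 1 gene of the 6 with this pattern. That contrast was used in choosing the genes.

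**Figure D1:**
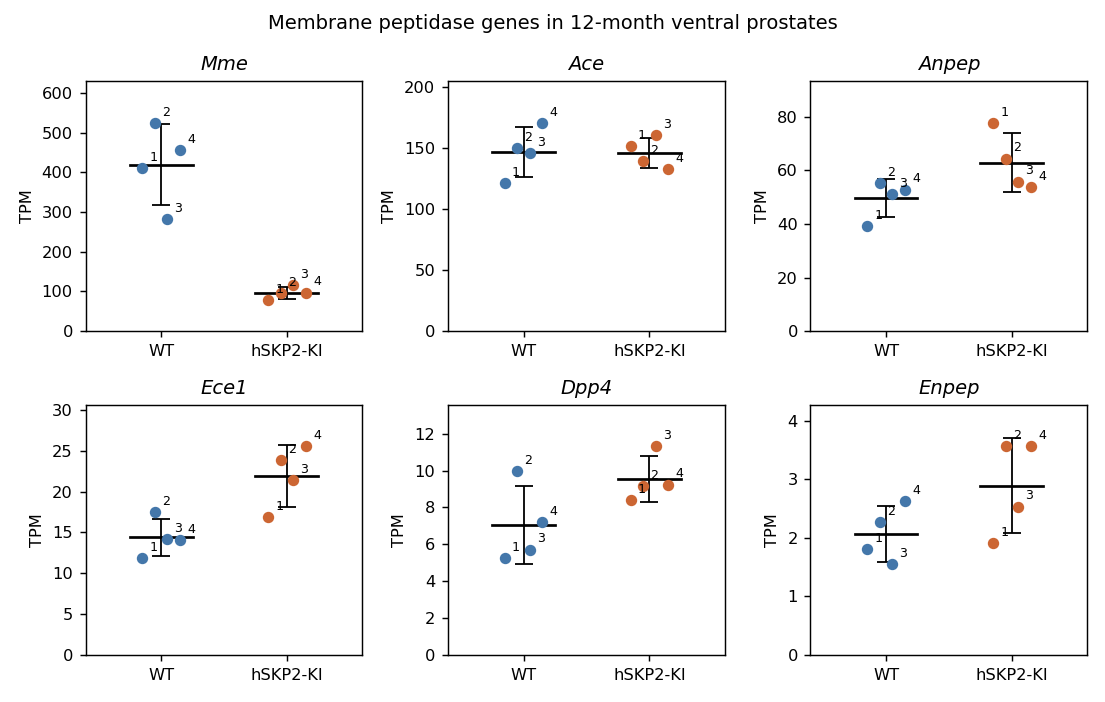
TPM (vertical axis, from 0) of the 6 peptidase genes in WT and hSKP2-KI ventral prostates. Each numbered point is 1 mouse and the bars are the mean ± SD of 4 mice; the Mme points of the hSKP2-KI mice, from 78.6 to 116 TPM, all lie below those of the WT mice, from 283 to 525 TPM, whereas the points of the other genes overlap.

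Ace, the angiotensin-converting enzyme, was at 121, 150, 146 and 171 TPM in WT and at 152, 139, 161 and 133 TPM in hSKP2-KI mice. The values of both genotypes were interspersed. The means were 147 ± 20.4 TPM (SD, n = 4) in WT and 146 ± 12.5 TPM (SD, n = 4) in hSKP2-KI. The log2 difference was -0.0011 on the deposited scale, or -0.24 relative to the median gene, and -0.27 after median-ratio scaling.

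Enpep, which acts on the angiotensin II that Ace makes, was the least abundant of the 6, at 1.81, 2.27, 1.55 and 2.62 TPM in WT and 1.91, 3.56, 2.54 and 3.56 TPM in hSKP2-KI mice. The groups overlapped, and the log2 difference was 0.33 as deposited and 0.15 after median-ratio scaling. The added 1 makes this difference smaller than the ratio of the mean TPM, which was 1.40.

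Ece1, the neprilysin relative, was at 11.9, 17.4, 14.2 and 14.1 TPM in WT and at 16.9, 23.9, 21.4 and 25.5 TPM in hSKP2-KI mice. The ranges overlapped, with only replicate 1 of hSKP2-KI below replicate 2 of WT. The means were 14.4 ± 2.29 TPM (SD, n = 4) and 21.9 ± 3.77 TPM (SD, n = 4), a log2 difference of 0.57 as deposited and 0.31 after median-ratio scaling. The 2 members of the neprilysin family among the 6 thus had differences of opposite sign on both scales.

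Anpep was at 39.2, 55.2, 51.1 and 52.8 TPM in WT and at 77.7, 64.3, 55.8 and 53.6 TPM in hSKP2-KI mice. Replicate 1 of hSKP2-KI was the highest and replicate 1 of WT the lowest, with the remaining values close together. As for Ece1, only 1 hSKP2-KI value (53.6 TPM) was below a WT value (55.2 TPM). The log2 difference of Anpep was 0.33 as deposited and 0.07 after median-ratio scaling.

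Dpp4 was at 5.27, 9.97, 5.71 and 7.22 TPM in WT and at 8.40, 9.17, 11.3 and 9.24 TPM in hSKP2-KI mice. WT replicate 2 lay above 3 of the 4 hSKP2-KI values, so the groups overlapped. Its log2 difference was 0.42 as deposited and 0.18 after median-ratio scaling.

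**Figure D2:**
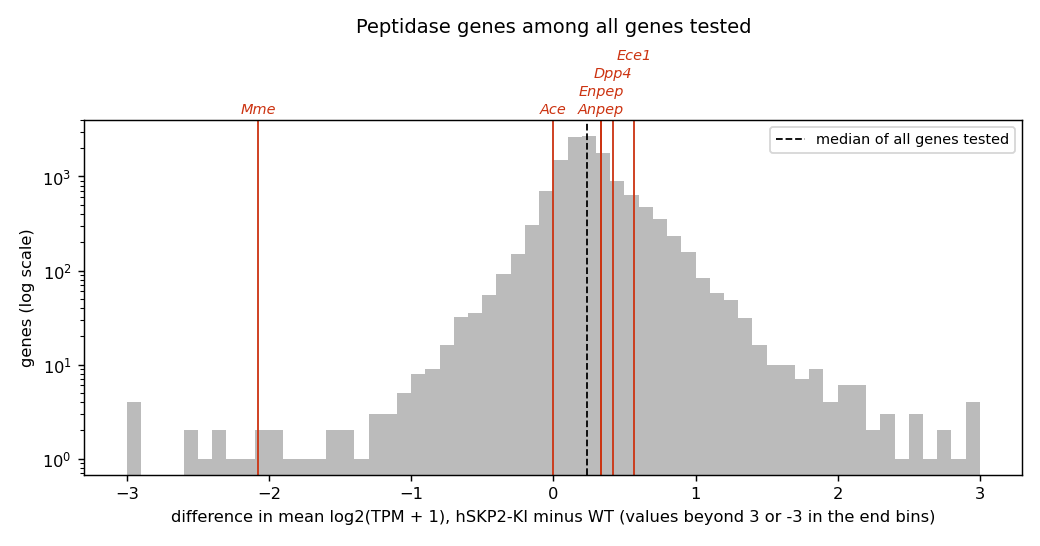
Number of genes (vertical axis, log scale) by difference in mean log2(TPM + 1), hSKP2-KI minus WT (horizontal axis), for the 13080 genes tested, with red lines at the 6 peptidase genes and a dashed line at the median of 0.23. Mme lies in the sparse left tail at -2.08, and the other 5 genes lie between -0.0011 and 0.57, in the bulk of the distribution.

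The order of the 6 transcripts was the same within each genotype. In all 4 WT mice it was Mme, Ace, Anpep, Ece1, Dpp4 and Enpep from the highest to the lowest, and in all 4 hSKP2-KI mice Ace came first and Mme second, with the rest in the same order. Mme and Anpep were nearly equal in replicate 1 of hSKP2-KI, at 78.6 and 77.7 TPM, but not in the other 3 mice. The ranges of neighbours in the order did not overlap in either genotype, and they came closest for Mme and Anpep in hSKP2-KI mice.

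Seen as a pool, the 6 transcripts summed to 501 to 760 TPM in WT mice (639 ± 116, SD, n = 4) and to 322 to 367 TPM in hSKP2-KI mice (340 ± 19.3, SD, n = 4). Without Mme, the other 5 summed to 220 ± 29.7 TPM in WT and 243 ± 14.2 TPM in hSKP2-KI, with overlapping ranges. Mme made up 65.0% ± 6.09 of the pool in WT and 28.4% ± 3.52 in hSKP2-KI (SD, n = 4 each). The share of Ace was 23.4% ± 4.27 in WT and 42.9% ± 1.94 in hSKP2-KI, and that of Anpep was 7.90% ± 1.57 and 18.5% ± 3.49. Ece1, Dpp4 and Enpep together remained minor, at 2.29%, 1.09% and 0.322% in WT and 6.48%, 2.80% and 0.857% in hSKP2-KI. As shares of 1 pool, these values move together when Mme changes.

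**Figure D3:**
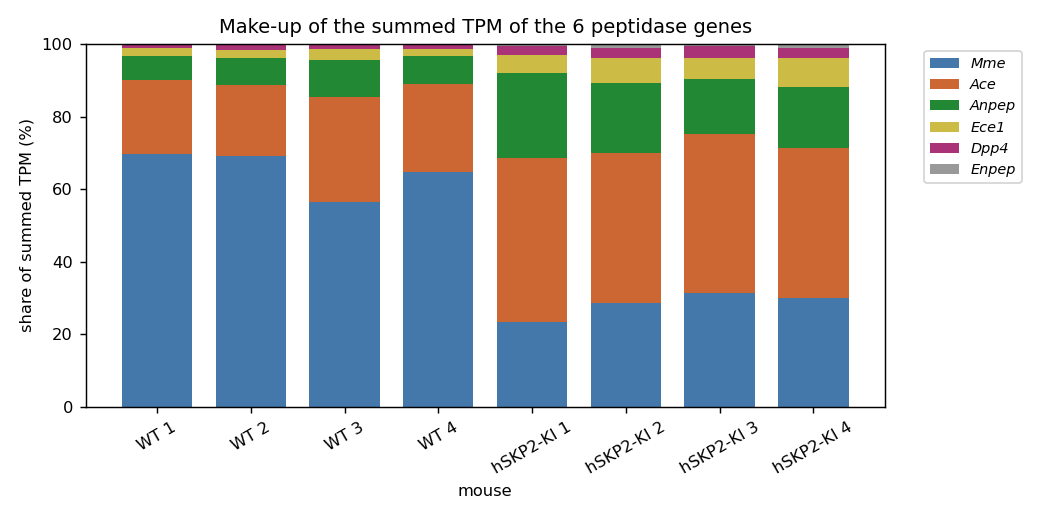
Share of the summed TPM of the 6 peptidase genes (vertical axis, %) in each of the 8 mice, 1 stacked bar per mouse and 1 colour per gene. The blue Mme segment takes 56.4% to 69.6% of the bar in WT mice and 23.4% to 31.5% in hSKP2-KI mice, where the Ace segment is the largest.

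In whole tissue, fewer cells of a type and less RNA per cell cannot be told apart. The cell-type markers moved between genotypes as well, and their counts are read against the 32.7% of all tested genes that were higher as deposited and the 6.92% after median-ratio scaling. The summed level of 8 fibroblast markers lay between 848 and 1493 TPM in hSKP2-KI and between 462 and 659 TPM in WT, with 8 of 8 genes higher in limma and 3 of 8 after median-ratio scaling. For 8 endothelial markers the ranges were 50.6 to 82.2 TPM and 29.9 to 43.1 TPM, with 6 of 8 and 3 of 8 higher, and for 7 macrophage markers 212 to 433 TPM and 93.5 to 193 TPM, with 6 of 7 higher as deposited and 0 of 7 after scaling. All 4 proximal luminal markers (Krt4, Psca, Ly6d and Wfdc2) were higher on both scales, with sums of 323 to 598 TPM and 94.3 to 116 TPM. The 6 smooth muscle markers summed to 3011 to 4624 TPM and 2032 to 2564 TPM, with 6 of 6 higher as deposited and 3 of 6 after scaling. Ranges overlapped for 6 pericyte markers (27.6 to 46.7 TPM in hSKP2-KI and 25.1 to 32.4 TPM in WT), 4 basal markers (292 to 424 TPM and 196 to 305 TPM) and 4 B cell markers (3.03 to 14.9 TPM and 1.76 to 21.9 TPM). Higher as deposited were 1 of 6 pericyte, 2 of 4 basal and 0 of 4 B cell markers, and after scaling 0 in each list. No gene of these 8 lists was at 0 in all samples. Of the 9 ventral luminal markers, 1 was higher and 2 were lower as deposited, and 0 were higher and 1 was lower after scaling. Among all tested genes, 1.23% were lower as deposited and 4.25% after scaling. The part of cell composition in the values of the 6 peptidases was not tested, but their levels can be read against these markers.

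Set against the luminal keratins Krt8 and Krt18, Mme was at 40.1%, 51.6%, 29.6% and 43.3% of their summed TPM in WT mice and at 6.48%, 8.33%, 10.5% and 8.80% in hSKP2-KI mice. The genotypes did not overlap on this measure either, and the ratio of WT to hSKP2-KI was 4.83. In hSKP2-KI prostates the mean levels of Krt8 and Krt18 were 1.12 and 1.14 times those of WT, whereas the summed ventral luminal markers were at 0.768 times. Mme was not set against that ventral luminal sum. Against the endothelial, pericyte, fibroblast, smooth muscle and macrophage sums, the ratio of WT to hSKP2-KI for Mme lay between 5.39 and 8.82, with no overlap in any of them. All these sums but the pericyte one were themselves higher in hSKP2-KI without overlap. These ratios therefore restate the contrast used in choosing Mme and are no separate support for it. Ace, well known from the endothelial surface, was at 348% to 462% of the endothelial sum in WT and at 161% to 306% in hSKP2-KI, without overlap, although its TPM values overlapped. This was not particular to the endothelial sum. Ace was also lower without overlap against the fibroblast sum (22.7% to 28.4% in WT and 9.32% to 17.9% in hSKP2-KI). The same held against the smooth muscle and macrophage sums, which were likewise higher in hSKP2-KI. Against the pericyte sum the Ace ranges overlapped. Relative to Krt8 and Krt18 the Ace ranges overlapped, at 11.8% to 16.2% in WT and 12.0% to 14.5% in hSKP2-KI. Ece1 stood at 38.2% to 41.3% of the endothelial sum in WT and 31.1% to 40.9% in hSKP2-KI. Enpep, known from pericytes among other cells, was at 6.04% to 8.94% of the pericyte sum in WT and 6.92% to 8.46% in hSKP2-KI. Anpep was at 8.38% to 9.04% of the fibroblast sum in WT and at 4.31% to 9.16% in hSKP2-KI, and Dpp4 was at 1.01% to 1.51% and 0.614% to 1.05%. For these 4 genes the genotypes overlapped on the measures given.

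The genes whose profile over the 8 samples was most like each peptidase were found by the root mean square difference between gene-centred log2(TPM + 1) values. For Mme, whose own centred profile had a root mean square of 1.07, the nearest gene was Egf, the epidermal growth factor precursor, at 0.216. Egf was at 186, 311, 156 and 169 TPM in WT mice and at 40.9, 42.3, 65.6 and 52.7 TPM in hSKP2-KI mice. In both genes, replicate 2 was the highest and replicate 3 the lowest of the WT mice, and replicate 3 was the highest of the hSKP2-KI mice. Gm36673 (0.236), Olfml3 (0.269), a secreted olfactomedin-domain protein, Unc5a (0.382), a netrin receptor, and 5830444B04Rik (0.386), listed at 0 in all 4 hSKP2-KI samples, followed. Olfml3 was at 265 ± 57.8 TPM in WT and 84.1 ± 19.8 TPM in hSKP2-KI, and Unc5a at 16.0 ± 4.86 TPM and 4.50 ± 0.631 TPM (SD, n = 4 each). Gm36673 was at only 3.02 ± 0.791 TPM in WT and 0.124 ± 0.0818 TPM in hSKP2-KI, and 5830444B04Rik at 3.43 ± 2.52 TPM in WT (SD, n = 4 each). At such low levels the added 1 makes the log2 difference smaller than the ratio of the TPM, so the nearness of these 2 genes to Mme depends on it.

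For the other peptidases the nearest profiles were flatter. Those of Ece1, with an own root mean square of 0.348, were Pla2r1 (0.0462), Mmrn2 (0.0493), an endothelial matrix protein, and Prex2 (0.0599). Ace (0.145) was nearest to Rpgrip1l (0.0568), Grin1 (0.0581) and Rabep2 (0.0611), and Anpep (0.258) to Six5 (0.0930), Dact2 (0.0966) and Slc22a23 (0.0984). Dpp4 (0.321) was nearest to Pard6g (0.0619), Cutc (0.101) and Bbs7 (0.104), and Enpep (0.290) to Dlc1 (0.0790), Itprip (0.0900) and Ablim3 (0.0922). These are distances over 8 samples that include the difference between genotypes.

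The remaining peptidases of the cell surface were examined as a list of 27 genes, of which 13 could be tested. In limma on log2(TPM + 1) with Benjamini-Hochberg adjustment over 13080 genes, 6 of the 13 were higher in hSKP2-KI prostates, Lvrn, Dpp6, Naalad2, Cpd, Dpep1 and Ggt7, and 0 were lower, also at an unadjusted p under 0.05. Across all genes tested 32.7% were higher and 1.23% lower on this scale. After median-ratio scaling, 2 of the 13 (Lvrn and Dpp6) were higher, where 6.92% of all genes were higher and 4.25% lower. The median log2 difference of the 13 was 0.45 as deposited and 0.22 after scaling, against 0.23 and -0.01 for all genes.

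Dpp6, a relative of Dpp4 that lacks peptidase activity and serves as a potassium channel subunit, had the largest difference of this list. It was at 3.21, 3.92, 4.08 and 4.12 TPM in WT and at 8.17, 8.03, 6.68 and 7.50 TPM in hSKP2-KI mice. All 4 hSKP2-KI values were above all WT values. The log2 difference was 0.83 (SE 0.11, limma adjusted p = 0.0011), and 0.60 (adjusted p = 0.0057) after scaling. Lvrn, an aminopeptidase of the same family as Anpep and Enpep, was at 1.02 ± 0.444 TPM in WT and 2.41 ± 0.432 TPM in hSKP2-KI (SD, n = 4). Its log2 difference was 0.77 (SE 0.18, limma adjusted p = 0.0104) and 0.62 (adjusted p = 0.0452) after scaling. Lvrn did not pass in limma after quantile normalization (adjusted p = 0.0667) or rescaling without the 20 most abundant genes (0.0628), whereas Dpp6 passed both (0.0111 and 0.0069).

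The calls of Dpep1, Naalad2, Cpd and Ggt7 held on the deposited scale only. Dpep1, a membrane dipeptidase, had a log2 difference of 0.67 (SE 0.19, limma adjusted p = 0.0218) and Cpd, a membrane carboxypeptidase, of 0.46 (SE 0.14, adjusted p = 0.0300), with 0.41 and 0.20 after scaling (adjusted p = 0.128 and 0.304). Leaving out replicate 4 of hSKP2-KI took the adjusted p of Dpep1 to 0.0560, of Cpd to 0.0765 and of Naalad2, a relative of prostate-specific membrane antigen, to 0.0816. Dpep1 was also lost without replicate 2 of hSKP2-KI (0.0554), Cpd without replicate 1 of WT (0.0635), and Naalad2 without replicate 2 or 3 of hSKP2-KI (0.0720 and 0.0696) or replicate 1 or 4 of WT (0.0799 and 0.0559). Ggt7 (0.45, adjusted p = 0.0441) was lost without any 1 of 6 mice, the exceptions being replicate 3 of hSKP2-KI and replicate 4 of WT, with adjusted p up to 0.113. With replicate 4 of hSKP2-KI left out 2 genes of the list were called, and without replicate 2 of hSKP2-KI or replicate 1 of WT 3 were called. Naalad2 was at 1.15 ± 0.285 TPM in WT and 1.98 ± 0.379 TPM in hSKP2-KI (SD, n = 4).

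The 2 further neprilysin family genes that could be tested did not pass. Ece2, a second endothelin-converting enzyme, was at 1.88 ± 0.150 TPM in WT and 2.08 ± 0.297 TPM in hSKP2-KI, a log2 difference of 0.09 (limma adjusted p = 0.547). Kel, the Kell blood group peptidase, was at 13.4, 14.0, 38.9 and 19.5 TPM in WT and at 28.03, 12.96, 23.7 and 15.2 TPM in hSKP2-KI mice, so the spread within each genotype was larger than the difference between them (log2 difference -0.03, adjusted p = 0.943). The most abundant gene of this list was Ggt1, a gamma-glutamyltransferase, at 141 ± 5.76 TPM in WT and 145 ± 7.04 TPM in hSKP2-KI (adjusted p = 0.641). The 14 genes not tested were at or below 3.56 TPM in every sample. Among them, Folh1, the mouse gene for prostate-specific membrane antigen, was at most 0.233 TPM and Fap, a fibroblast relative of Dpp4, at 0.327 to 1.64 TPM.

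The 20 related peptidases that work inside cells or are secreted were all tested, and 4 of them (Cpq, Cpe, Prcp and Lta4h) were higher in limma and 0 lower as deposited, with 1 lower at an unadjusted p under 0.05. This share, 20%, compares with 32.7% higher among all genes. Cpq, a secreted carboxypeptidase, was at 23.4 ± 11.0 TPM in WT and 52.3 ± 7.13 TPM in hSKP2-KI (log2 difference 1.24, SE 0.27, limma adjusted p = 0.0080). Cpe, which trims prohormones, was at 43.5 ± 8.62 TPM and 87.8 ± 23.1 TPM (log2 difference 0.98, SE 0.18, adjusted p = 0.0037). After scaling, Cpe alone of the 4 remained higher (0.72, adjusted p = 0.0240), with Cpq at 0.97 (adjusted p = 0.0580), and the oligopeptidases Prepl (-0.48, adjusted p = 0.0057) and Thop1 (-0.39, adjusted p = 0.0453) were lower. The median of the list was 0.19 as deposited and -0.07 after scaling.

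**Figure D4:**
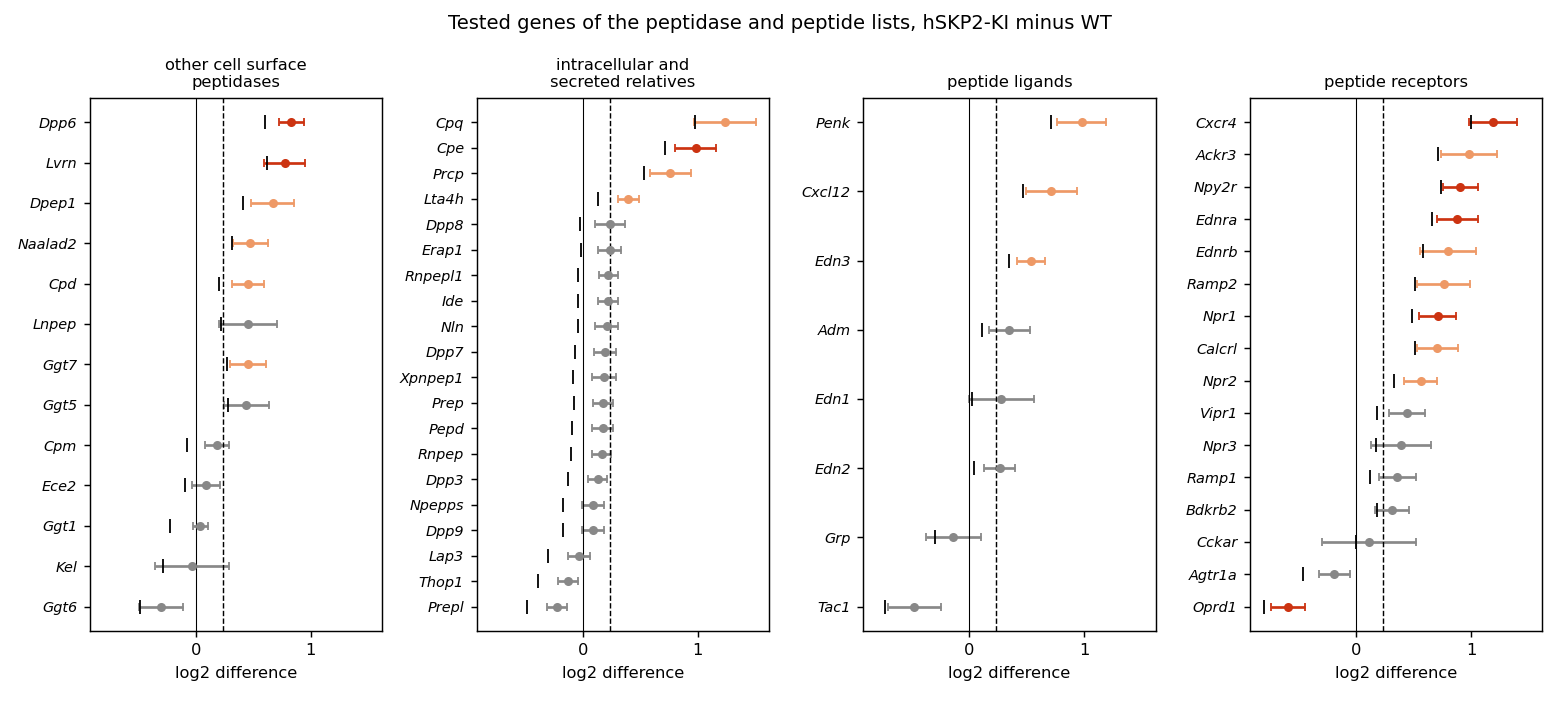
Log2 difference (hSKP2-KI minus WT, log2(TPM + 1) scale, horizontal axis) ± SE for each tested gene of the other cell surface peptidases, their intracellular and secreted relatives, peptide ligands and peptide receptors. Red points had a limma adjusted p under 0.05 as deposited and after median-ratio scaling, orange points as deposited only and grey points did not pass as deposited. Black ticks give the scaled difference and the dashed line the median of all genes, 0.23; most called genes lie to its right, with Oprd1 at -0.59 on the left.

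Peptides cut by these enzymes, and their receptors, were the next lists. Of 27 ligand genes 8 were tested, and 3 were higher in limma (Penk, Edn3 and Cxcl12) and 0 lower, also at an unadjusted p under 0.05. The 3 of 8, or 37.5%, lie near the 32.7% higher among all genes. After median-ratio scaling 0 passed the limma threshold, with 4 at an unadjusted p under 0.05, and 0 passed under the other normalizations either (3 at an unadjusted p under 0.05 after quantile normalization and 4 after rescaling without the 20 most abundant genes). The median log2 difference of the 8 was 0.31 as deposited and 0.07 after scaling.

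Penk encodes proenkephalin, the precursor of the enkephalins that neprilysin and aminopeptidase N degrade. It was at 50.4, 69.1, 73.5 and 62.8 TPM in WT and at 80.9, 189, 135 and 120 TPM in hSKP2-KI mice. The ranges did not overlap. The log2 difference was 0.98 (SE 0.21, limma adjusted p = 0.0083), and 0.71 (adjusted p = 0.0538) after scaling. Edn3, an endothelin precursor and so a source of substrate for Ece1 and Mme, was at 1.98 ± 0.338 TPM in WT and 3.31 ± 0.351 TPM in hSKP2-KI (0.54, SE 0.12, adjusted p = 0.0102, and 0.34, adjusted p = 0.0812, after scaling). Cxcl12, the chemokine cut by Dpp4, was at 8.46 ± 2.93 TPM and 14.3 ± 3.85 TPM, with overlapping ranges (0.71, SE 0.22, adjusted p = 0.0332). Its adjusted p rose to 0.0711 without replicate 2 and to 0.0851 without replicate 4 of hSKP2-KI, and to 0.0922 and 0.0889 without replicates 1 and 3 of WT.

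The precursor of substance P, Tac1, was at 22.2 ± 6.87 TPM in WT and 15.2 ± 3.17 TPM in hSKP2-KI and did not pass (adjusted p = 0.120), and neither did Edn1 (13.8 ± 2.92 TPM and 18.3 ± 9.99 TPM, adjusted p = 0.438). Tac1 was at 12.0 TPM in replicate 3 of WT and between 24.6 and 26.9 TPM in the other WT mice, and without that replicate it was lower in hSKP2-KI mice (limma adjusted p = 0.0103). Of the 19 ligand genes not tested, 5 were listed at 0 in all 8 samples.

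Of 33 receptor genes 16 were tested, of which 9 were higher in limma (56.2%, against 32.7% of all genes) and 1, Oprd1, was lower (1.23% of all genes were). After median-ratio scaling Ednra, Npr1, Npy2r and Cxcr4 were higher, 4 of the 16, and Oprd1 was lower, where 6.92% of all genes were higher and 4.25% lower. The median log2 difference was 0.63 as deposited and 0.41 after scaling. The receptor genes that were higher as deposited were the endothelin receptors Ednra and Ednrb, the natriuretic peptide receptors Npr1 and Npr2, the calcitonin gene-related peptide and adrenomedullin receptor genes Calcrl and Ramp2, the neuropeptide Y receptor Npy2r and the CXCL12 receptors Cxcr4 and Ackr3. The ranges of the endothelial, fibroblast and smooth muscle sums also did not overlap between genotypes, and their part in the receptor values was not tested.

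Oprd1, the delta opioid receptor at which enkephalins act, was at 4.44, 5.37, 4.54 and 5.54 TPM in WT and at 2.25, 2.46, 3.24 and 4.08 TPM in hSKP2-KI mice. Every hSKP2-KI value was below every WT value. The log2 difference was -0.59 (SE 0.15, limma adjusted p = 0.0153) and -0.81 (adjusted p = 0.0071) after scaling. In the enkephalin system, the precursor Penk was thus higher on the deposited scale, while Oprd1 was lower on both scales.

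Ednra was at 3.34, 4.05, 3.26 and 3.86 TPM in WT and at 6.05, 11.6, 7.13 and 6.18 TPM in hSKP2-KI mice, with no overlap. Its log2 difference was 0.88 (SE 0.18, limma adjusted p = 0.0057) and 0.65 (adjusted p = 0.0332) after scaling. Ednrb differed by 0.80 (SE 0.24, adjusted p = 0.0294) with overlapping ranges, and by 0.58 (adjusted p = 0.135) after scaling, and its adjusted p was 0.0735, 0.0666 and 0.0554 without replicates 2, 3 and 4 of hSKP2-KI and 0.0673 without replicate 1 of WT, and without replicate 4 of WT it was just past the threshold. Ramp2 (0.76, adjusted p = 0.0299) was lost without replicates 1, 2 or 4 of hSKP2-KI or replicates 1 or 3 of WT, with adjusted p up to 0.0770. Cxcr4 was at 0.729, 2.26, 2.46 and 1.44 TPM in WT and at 5.20, 5.05, 4.00 and 5.81 TPM in hSKP2-KI mice, the largest difference of the list at 1.19 (SE 0.21, adjusted p = 0.0035), and 1.00 (adjusted p = 0.0156) after scaling. Npy2r rose from 1.00 ± 0.298 TPM to 2.75 ± 0.601 TPM (0.90, SE 0.15, adjusted p = 0.0032), and Ackr3, a scavenger of CXCL12, from 34.0 ± 11.6 TPM to 68.3 ± 24.5 TPM (0.98, SE 0.24, adjusted p = 0.0136, and 0.71, adjusted p = 0.0686, after scaling). The angiotensin receptor Agtr1a, the most abundant receptor of the list, was at 144 ± 20.6 TPM in WT and 126 ± 21.9 TPM in hSKP2-KI and did not pass (log2 difference -0.19, adjusted p = 0.269).

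**Figure D5:**
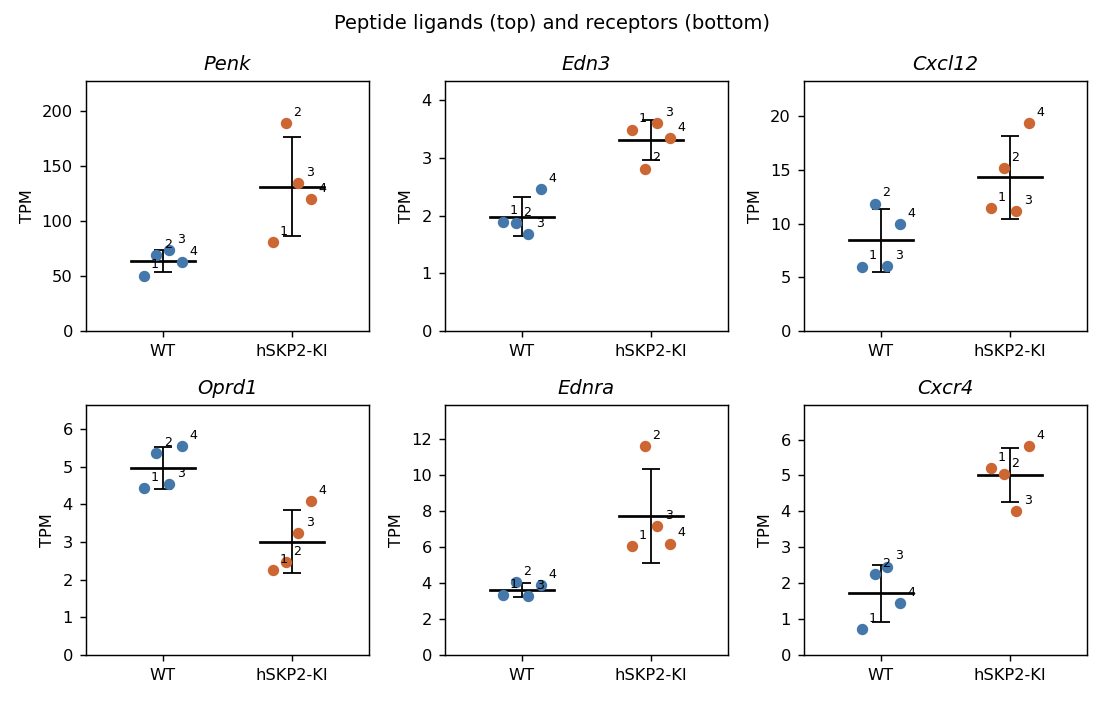
TPM (vertical axis, from 0) of the peptide precursors and chemokine Penk, Edn3 and Cxcl12 (top) and the receptors Oprd1, Ednra and Cxcr4 (bottom) in WT and hSKP2-KI ventral prostates, with 1 numbered point per mouse and the mean ± SD of 4 mice. Oprd1 is lower in all 4 hSKP2-KI mice (2.25 to 4.08 TPM) than in WT mice (4.44 to 5.54 TPM), and of the other 5 genes only Cxcl12 has overlapping ranges.

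Nothing in the labels gives a sequencing batch, and no value here measures peptide or enzyme activity. The limma p-values weigh the difference between genotypes against the spread among the 4 mice of each genotype. Nothing says whether any mice were littermates, and the p-values take no account of such relations.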

How the data were processed

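Poly-A libraries of 4 hSKP2-KI and 4 WT prostates (ventral lobe) were sequenced by the authors with paired-end reads, which were mapped in CLC Genomics software. The version, annotation and counting options are not given in the sources used here, and the submitters' processing notes name mm10 and GRCm38 as builds. The deposited table holds TPM for 36333 genes in 8 columns, each summing to 1000000, with 0 columns from other samples, and was used as deposited. The study states an overall read number, but the reads of each library and the counts per gene are not given in the sources used here. No count model or counting interval was therefore used.

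Genotypes were taken from the labels. Genes with at least 1 TPM in at least 4 samples were fitted as log2(TPM + 1) with limma 3.58.1 (R 4.3.3, two-sided, with a mean-variance trend), with Benjamini-Hochberg adjustment over 13080 genes (threshold 0.05). The fit was tested on simulated data. The 6 peptidases and all lists were chosen with earlier results of these data known, and no p-value is given for the 6. Named in the text were the 6, Skp2, Pbsn, up to 5 called genes per direction and list by size of difference, every tested gene of the neprilysin, angiotensin-converting enzyme and glutamate carboxypeptidase families, and the nearest profiles (5 for Mme, 3 for the others). Ggt1, Ggt7, Npr1, Npr2, Calcrl, Ramp2, Agtr1a, Tac1, Edn1, Prepl, Thop1, Folh1, Fap, Vip and Npy were named after their values were seen.

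Alternatives were a pseudocount of 0.1, median-ratio scaling, rescaling without the 20 most abundant genes, quantile normalization, no filter, a filter on a mean TPM of 5, leaving out each mouse and a replicate block. Marker lists were ventral luminal, basal, proximal luminal, fibroblast, smooth muscle, pericyte, endothelial, macrophage, T cell, B cell, leukocyte, seminal vesicle, skeletal muscle and adipocyte genes. Some genes within the lists are not reported here. Promoter windows and positions came from RefSeq (GRCm38.p6), and exon overlap from GENCODE vM21. Python 3.11.15 with matplotlib 3.10.9 made the figures.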

Additional observations from a re-analysis of the deposited data

Results flagged for a closer look

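Among 96 groups of 4 mice examined, 4 held a mouse far from the other 3, and chance gives about 1 in 20 groups. Dpep1 was at 10.17 TPM in replicate 1 of WT, with the other 3 WT mice between 17.04 and 17.66 TPM. Cpd was at 16.01 TPM in the same WT mouse, against 22.61 to 23.46 TPM in the others. Cpd was also at 36.84 TPM in replicate 4 of hSKP2-KI, against 26.44 to 27.59 TPM. Pbsn was at 173.8 TPM in replicate 4 of hSKP2-KI, against 93.04 to 97.82 TPM in the other 3 knock-in mice. No value of the 6 peptidases Mme, Ece1, Ace, Anpep, Dpp4 and Enpep was flagged in this way.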

How the results depend on the processing

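Of 4433 genes called in limma, median-ratio scaling left 1461 (905 higher and 556 lower), quantile normalization 1316 (708 and 608) and rescaling without the 20 most abundant genes 1330 (892 and 438). In that order, calls among other surface peptidases went from 6 to 2, 2 and 1, among ligands from 3 to 0, 0 and 0, and among receptors from 10 to 5, 3 and 4. The 2 surface peptidase calls under quantile normalization were 1 higher and 1 lower. Calls among relatives went from 4 to 2 by quantile normalization, 1 higher and 1 lower. No filter left 3 surface peptidases, and a mean TPM of at least 5, which tests fewer genes, left 3 surface peptidases and 6 receptors. Under the same 3 scalings the log2 difference of Ace was -0.27, -0.25 and -0.25, and that of Anpep 0.068, 0.10 and 0.090. For Ece1 it was 0.31 and 0.32 under the first 2, and under quantile normalization it was 0.13 for Dpp4 and 0.0069 for Enpep. Mme stayed between -2.35 and -2.08 under all of these. Leaving out 1 mouse gave 2993 to 4677 calls, 2 to 5 among surface peptidases, 4 to 6 relatives, 2 to 3 ligands, 8 to 12 receptors and -2.25 to -1.96 for Mme. Of the 22 tested named results, 2 that did not pass under any alternative changed sign: Ece2 from 0.090 to -0.090, -0.22 and -0.091 under the 3 scalings, and Kel from -0.03 to 0.14, 0.07 and 0.29 without replicates 2 or 4 of hSKP2-KI or 3 of WT (range -0.21 to 0.29 over single mice left out). The other 20 kept their sign, and 59 repeats no longer passed; the cause was not tested. Same-numbered mice correlated at 0.22, -0.11, 0.17 and -0.01 across genes, and 4 of 8 samples correlated best with their own number. With so few mice, these values cannot decide whether replicate numbers stand for pairs or a shared batch. A replicate block gave 5128 calls, 7 relatives (6 higher and 1 lower), 6 surface peptidases, 4 ligands (3 higher and 1, Tac1, lower) and 11 receptors. TPM without read counts limits what can be said of genes near 1 TPM.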

Other observations

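Among ligand genes that did not reach the filter, Vip, the vasoactive intestinal peptide precursor, was at 11.9 TPM in replicate 1 of hSKP2-KI and at most 0.438 TPM in the other 7 mice. Npy, the neuropeptide Y precursor and a substrate source for Dpp4, was highest in the same mouse at 6.30 TPM, with 2.75, 0.576 and 0.918 TPM in the other hSKP2-KI mice and at most 0.152 TPM in WT mice. Neither gene was tested. The T cell markers summed to 7.47 to 9.88 TPM in hSKP2-KI and 3.51 to 7.15 TPM in WT, the pan-leukocyte gene Ptprc lay at 3.72 to 7.76 TPM and 1.59 to 5.29 TPM, skeletal muscle markers at 252 to 411 TPM and 158 to 299 TPM, and adipocyte markers at 40.6 to 193 TPM and 24.6 to 156 TPM.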
